A study of Mus musculus with 10 samples.

Results

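YAP and its paralogue TAZ are coactivators that carry the output of the Hippo pathway. The kinases of the pathway phosphorylate YAP and TAZ and keep them out of the nucleus, and unphosphorylated YAP and TAZ bind TEAD transcription factors on DNA and raise the transcription of their target genes. The 9 genes described here are known YAP/TEAD targets: the secreted matrix-associated proteins Ccn1, Ccn2 and Thbs1, the membrane proteins Crim1 and Axl, the cofactor Ankrd1, and the pathway regulators Amotl2, Ajuba and Lats2. In mesenchymal cells Ccn1 and Ccn2 are widely used as readouts of YAP activity. The genes were taken by symbol from a list of known targets, of 21934 symbols in each of the 2 deposited tables. The members were chosen by their input and footprint changes in these 10 libraries, Ccn2 as the strongly changing case, so the values below are a description and carry no test.

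Ribosome profiling sequences the mRNA fragments that ribosomes shield from nuclease (footprints), beside polyadenylated input RNA from the same kind of sample. The series holds 10 mouse libraries, 1 input and 1 footprint library for each of 5 conditions, so no difference has a replicate check. The iBMDM table covers monoclonal immortalized bone marrow-derived macrophage lines: a wild-type control (WT) and lines made with lentiviral sgWdr4-1 (guide 1) or sgWdr4-2 (guide 2), after puromycin selection. The TAM table covers tumour-associated macrophages sorted on F4/80 from orthotopic Hepa1-6 liver tumours in Wdr4 ff (ff) mice or in Wdr4 cKO (cKO) mice, whose deletion is myeloid-specific. The Cre driver, the age of the mice and the number of animals per library are not stated in the labels. Wdr4 encodes the partner of the tRNA 7-methylguanosine methyltransferase Mettl1, and the series' title asks what it does to translation efficiency. Values are TPM, an abundance corrected for gene length that has the same total in each library, and a change is a difference of log2(TPM + 1) within 1 table. Translation efficiency is footprints over input of 1 condition on that scale. The size rule is a change of at least 1 on the log2 scale (2-fold), applied where mean input and mean footprints both reach 5 TPM, which 7536 iBMDM genes and 7101 TAM genes did. All 9 genes passed this minimum in both tables. Levels from different tables are set side by side only, since the tables were normalised separately.

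Some libraries did not match their labels or stood apart. Wdr4 input under guide 2 was 99.8% of WT, under guide 1 70.1% of WT and in cKO 52.6% of ff, while Wdr4 footprints were 1.82 to 2.08-fold of the control in the 3 libraries labelled as targeted. Levels per gene do not show whether the Wdr4 locus was edited or its protein lost. Of 16 macrophage markers, 12 stayed below 1 TPM in all 5 input libraries, 2 (Cd14 and Lgals3) reached 5 TPM in all 5, their summed input was 526 to 688 TPM, and Adgre1 (F4/80) was listed at 0 in all 10 libraries, whereas 7 of 14 fibroblast and stellate markers were at least 5 TPM in every input, so the cells are named here by label only. Of the other marker lists, at most 2 genes each reached 5 TPM in every input. The guide 1 footprint library held 0.781% mitochondrially encoded TPM, against 9.94% to 14.6% in the other footprint libraries, and lay 0.902 to 1.15 (robust SD of log2 differences over 6927 genes) from each of them, where the other 4 lay 0.378 to 0.581 from each other. Of those 4, WT and ff lay nearest to each other (0.378), then guide 2 and cKO (0.448), with ff and cKO at 0.530. Among input libraries, guide 1 and cKO lay 0.186 from each other and 0.224 to 0.294 from WT, guide 2 and ff, which lay 0.093 to 0.130 from each other. Each iBMDM result is therefore given for guide 2 without guide 1 as well.

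The promoter windows of RefSeq, 250 bases before to 50 bases after a start site, were available for 7 of the 9 genes, on build GRCm38.p6 (the build behind the deposited tables is not given in the sources used here). Ccn2 (gene 14219, chr10:24595442-24598683) and Thbs1 (gene 21825, chr2:118111876-118127133) are named only. The TEAD core CATTCC, searched on both strands, was present in the window of all 7 genes and in 7 of their 8 windows (87.5%), since Lats2 has a further window without it. Of all 32851 windows, 14.7% held it. These stretches show the match in capitals, CATTCC on the gene's strand or GGAATG where the core lies on the opposite strand, with 12 bases on each side, read 5′ to 3′ along the gene.
Ccn1, chr3:145650071-145650100, minus strand: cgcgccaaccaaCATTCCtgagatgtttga
Amotl2, chr9:102717727-102717756, plus strand: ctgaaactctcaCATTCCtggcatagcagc
Crim1, chr17:78200157-78200186, plus strand: agggcgggggggGGAATGaggtaggatggg
Ankrd1, chr19:36120037-36120066, minus strand: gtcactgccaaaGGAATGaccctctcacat
Ankrd1, chr19:36119950-36119979, minus strand: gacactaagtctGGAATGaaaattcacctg
Ajuba, chr14:54577830-54577859, minus strand: cgttgatggataCATTCCacagtgcccctc
Ajuba, chr14:54577808-54577837, minus strand: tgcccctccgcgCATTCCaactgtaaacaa
Axl, chr7:25788949-25788978, minus strand: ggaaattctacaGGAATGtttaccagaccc
Lats2, chr14:57746102-57746131, minus strand: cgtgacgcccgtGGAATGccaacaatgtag

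Ankrd1 and Ajuba each held 2 matches, and the other 5 genes 1 each. In Ccn1 and Amotl2 the core was followed by tg, as it was in Axl when read along the core's own strand. In Crim1 the match sat after a run of g on the gene's strand. The matches began between position -233 (Axl) and position 5 (Lats2) counted from the start site. The whole 250 bases before the start of Ccn1 and of Ankrd1, 2 of the 3 genes whose footprints were at least 2-fold lower under guide 2, are shown with the core in capitals.
Ccn1, chr3:145649986-145650235, minus strand: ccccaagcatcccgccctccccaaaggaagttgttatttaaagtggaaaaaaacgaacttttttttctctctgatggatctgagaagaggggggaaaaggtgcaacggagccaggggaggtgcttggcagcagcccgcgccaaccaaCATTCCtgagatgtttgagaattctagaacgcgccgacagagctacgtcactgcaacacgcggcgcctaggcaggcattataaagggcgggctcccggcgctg
Ankrd1, chr19:36119845-36120094, minus strand: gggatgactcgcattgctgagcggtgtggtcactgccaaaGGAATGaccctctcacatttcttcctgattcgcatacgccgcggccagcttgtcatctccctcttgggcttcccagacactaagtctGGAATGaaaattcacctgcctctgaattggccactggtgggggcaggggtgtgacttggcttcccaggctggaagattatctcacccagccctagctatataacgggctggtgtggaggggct

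The AP-1 motif TGANTCA (in 7.81% of all windows) and the CArG box bound by SRF (in 1.63%) were found in none of the 8 windows. Among promoters of YAP, TAZ, TEAD and VGLL genes 8 of 11 windows held the TEAD core (72.7%), and among the other genes of a published YAP/TAZ target signature 1 of 10. A match describes the letters in these windows and was not tested for binding.

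**Figure D1:**
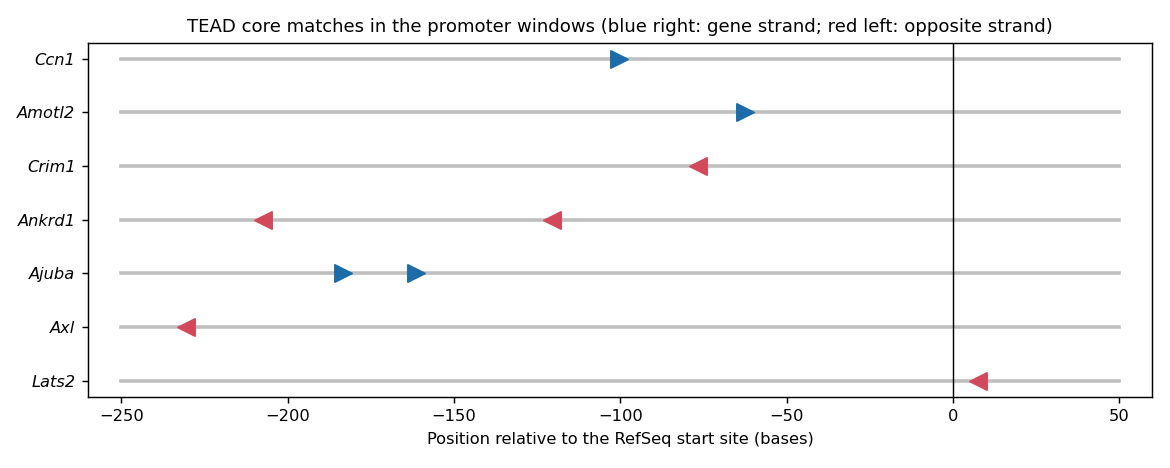
Positions of the TEAD core CATTCC in the promoter windows of 7 genes, from 250 bases before to 50 bases after the RefSeq start site (x axis, bases). Right-pointing blue triangles mark the core on the gene's strand and left-pointing red ones the opposite strand. Of the 9 matches, 8 lie before the start and that of Lats2 lies just after it.

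Ccn2, connective tissue growth factor, was abundant in every library and had the largest translation efficiency change of the 9 genes under guide 2 and in cKO. Its input RNA was 977 TPM in WT, 1919 TPM with guide 1, 999 TPM with guide 2, 1010 TPM in ff and 3206 TPM in cKO. Its footprints were 3402 TPM in WT, 4858 TPM with guide 1, 1096 TPM with guide 2, 5007 TPM in ff and 1530 TPM in cKO. Input was thus above its control in cKO and, to a lesser degree, under guide 1, the 2 input libraries that stood apart across all genes, and between 977 and 1010 TPM in the other 3. Footprints were above WT under guide 1, below WT under guide 2 and below ff in cKO.

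Under guide 2 the Ccn2 change was 0.03 in input and -1.63 in footprints, and footprints were 32.2% of WT. The translation efficiency change of -1.67 was the 62nd lowest of 7536 genes. In cKO the input change was 1.67, the 11th highest of 7101 genes, and the footprint change was -1.71, the 77th lowest. The 2 changes point opposite ways and add up to a translation efficiency change of -3.38, the 12th lowest of 7101. Footprint over input TPM was 4.96 in ff and 0.477 in cKO, a 10.4-fold difference. Across all 7101 genes the input and footprint changes in cKO ran opposite (Pearson r = -0.275 across genes, which are not independent replicates), against r = -0.019 for guide 1 and 0.016 for guide 2. The size of the cKO value rests on the labels of the 2 TAM footprint libraries: with those exchanged it would be 0.043. Under guide 1 input was 0.97 higher, just under the size rule, footprints were 0.51 higher, and translation efficiency was 0.46 lower.

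Ccn1, a secreted integrin ligand of the same family, was close to Ccn2 in level but moved less in input. Its input was 1028 TPM in WT, 1445 TPM with guide 1, 1035 TPM with guide 2, 1067 TPM in ff and 1600 TPM in cKO. Its footprints were 3320 TPM in WT, 3122 TPM with guide 1, 1379 TPM with guide 2, 4401 TPM in ff and 2231 TPM in cKO. As for Ccn2, footprints lay below the control under guide 2 and in cKO, while input lay above it under guide 1 and in cKO. The translation efficiency change was -1.28 under guide 2, -1.57 in cKO and -0.58 under guide 1. The cKO footprint change of -0.98 lay just under the size rule.

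Together Ccn1 and Ccn2 took a large share of footprints for a gene pair. They made up 0.672% of footprint TPM in WT, 0.798% under guide 1, 0.247% under guide 2, 0.941% in ff and 0.376% in cKO. Their share of input was 0.200% in WT, 0.337% under guide 1, 0.203% under guide 2, 0.208% in ff and 0.481% in cKO. The footprint share was larger than the input share in every condition but cKO. Ccn2 ranked 29th of all symbols by footprint TPM in WT, 14th under guide 1 and 19th in ff, and 153rd under guide 2 and 114th in cKO.

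Thbs1, thrombospondin-1, a matrix glycoprotein that can activate latent TGF-beta, followed Ccn2 in input. Its input was 486 TPM in WT, 844 TPM with guide 1, 490 TPM with guide 2, 514 TPM in ff and 1163 TPM in cKO. Its footprints were 560 TPM in WT, 822 TPM with guide 1, 423 TPM with guide 2, 858 TPM in ff and 527 TPM in cKO. Input lay above the control under guide 1 and in cKO, as for Ccn2, and the footprint changes in guide 2 and cKO were smaller than those of Ccn2. In cKO the input change was 1.18, the footprint change -0.70 and the translation efficiency change -1.88. Under guide 2 the translation efficiency change was -0.42, well under the size rule.

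Crim1, a membrane protein with cysteine-rich repeats that binds bone morphogenetic proteins, had modest levels. Its input was 85.5 TPM in WT, 105 TPM with guide 1, 79.8 TPM with guide 2, 75.7 TPM in ff and 119 TPM in cKO. Its footprints were 110 TPM in WT, 127 TPM with guide 1, 64.3 TPM with guide 2, 149 TPM in ff and 64.5 TPM in cKO. Footprints lay below the control in guide 2 and cKO, as those of Ccn1 and Ccn2 did. Translation efficiency was 0.67 lower under guide 2 and 1.83 lower in cKO. The cKO footprint change of -1.19 became -0.98, under the size rule, with libraries shifted to the same median.

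Axl, the receptor tyrosine kinase for Gas6, had the flattest input of the 9 genes. Its input lay between 621 and 673 TPM in all 5 conditions. Its footprints were 234 TPM in WT, 141 TPM with guide 1, 201 TPM with guide 2, 255 TPM in ff and 276 TPM in cKO. Footprints were below WT under both guides, further under guide 1, and the cKO value lay above that of ff. The translation efficiency changes were -0.81 under guide 1, -0.22 under guide 2 and 0.13 in cKO, all under the size rule.

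Ankrd1, an ankyrin repeat protein of muscle and stressed cells, resembled Ccn1 in its low footprints under guide 2 and in cKO. Its input was 521 TPM in WT, 665 TPM with guide 1, 525 TPM with guide 2, 531 TPM in ff and 841 TPM in cKO. Its footprints were 422 TPM in WT, 825 TPM with guide 1, 204 TPM with guide 2, 386 TPM in ff and 154 TPM in cKO. Footprints were above WT under guide 1, below WT under guide 2 and below ff in cKO. Translation efficiency was 1.06 lower under guide 2, 1.98 lower in cKO and 0.61 higher under guide 1. With libraries shifted to the same median the guide 2 changes were -0.97 in footprints and -0.96 in translation efficiency, both under the size rule.

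Amotl2, an angiomotin-like protein that binds YAP at cell junctions, had input between 163 and 202 TPM in all 5 conditions. Its footprints were 180 TPM in WT, 381 TPM with guide 1, 118 TPM with guide 2, 205 TPM in ff and 73.7 TPM in cKO. Footprints again lay below the control in cKO and guide 2, and guide 1 lay above WT. The guide 1 footprint change of 1.08 was the only one of the 9 at least 2-fold higher under that guide, and it was 0.95 with libraries shifted to the same median. The translation efficiency change was -0.56 under guide 2 and -1.77 in cKO.

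Ajuba and Lats2 act within the pathway, as does Amotl2. Unlike Amotl2, and like Axl, neither was at least 2-fold lower in footprints or translation efficiency in any comparison. Ajuba, a LIM protein that restrains LATS kinases, had input between 80.8 and 97.7 TPM. Its footprints were 14.8 TPM in WT, 27.4 TPM with guide 1, 22.6 TPM with guide 2, 16.3 TPM in ff and 12.3 TPM in cKO. Its translation efficiency was 0.86 higher under guide 1, 0.59 higher under guide 2 and 0.15 lower in cKO, none past the size rule.

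Lats2, a kinase that phosphorylates YAP and is itself a YAP target, was the member with more footprints in guide 2 and cKO. Its input lay between 48.8 and 57.8 TPM. Its footprints were 9.82 TPM in WT, 14.0 TPM with guide 1, 29.8 TPM with guide 2, 3.36 TPM in ff and 11.6 TPM in cKO. Footprints were higher in each library labelled as targeted than in its control, with similar input. The translation efficiency change was 1.49 under guide 2, the 53rd highest of 7536 genes, 1.40 in cKO, the 103rd highest of 7101, and 0.27 under guide 1. The Lats2 footprints are low values of unknown depth. In the TAM table the ff value lay below 5 TPM, so Lats2 passed the minimum there only through its cKO footprints. Its cKO call and rank therefore carry no weight beyond the 2 levels. With a pseudocount of 5 TPM the cKO change was 0.87, and a minimum of 20 TPM left the gene out.

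**Figure D2:**
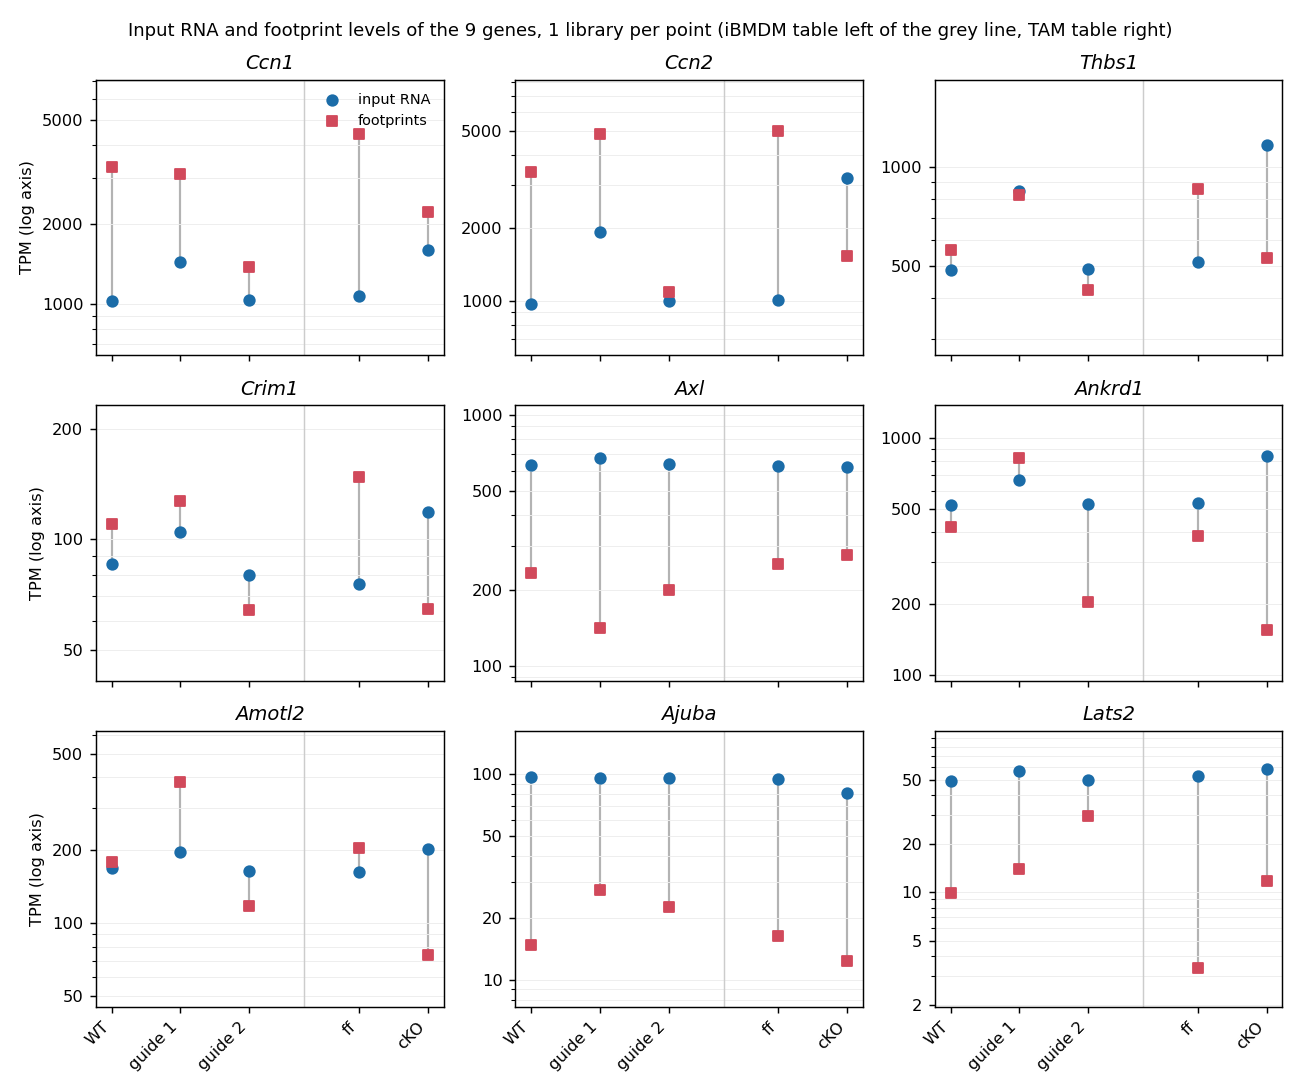
Input RNA (blue circles) and footprint (red squares) TPM of the 9 genes on log axes, 1 library per point, with a grey bar joining the 2 values of a condition. For Ccn2 the footprints lie above the input in WT, guide 1, guide 2 and ff and below it in cKO (1530 against 3206 TPM), and Lats2 and Ajuba footprints lie below the input throughout.

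In the control libraries the 9 genes spread over nearly the whole range of translation efficiency. Ccn2 was at 1.80 in WT and 2.31 in ff (97.2nd and 98.4th percentile of all genes in the table), and Ccn1 at 1.69 and 2.04 (96.5th and 97.5th). Crim1, Thbs1, Amotl2 and Ankrd1 lay between -0.46 and 0.96 in the 2 controls. Axl was at -1.43 and -1.29, Ajuba at -2.64 and -2.47 and Lats2 at -2.20 and -3.62 (7.2nd and 0.7th percentile). The median gene was at -0.58 in WT and -0.59 in ff, so 6 of the 9 genes lay above it in both controls and 3 below. In cKO Ccn2 was at -1.07 (43.6th percentile), Ccn1 at 0.48 (82.9th) and Ankrd1 at -2.44 (10.1st percentile). The 6 genes above the median in both controls were the 6 at least 2-fold lower in cKO. A control library enters both its own level and the change from it, so this overlap is a description.

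**Figure D3:**
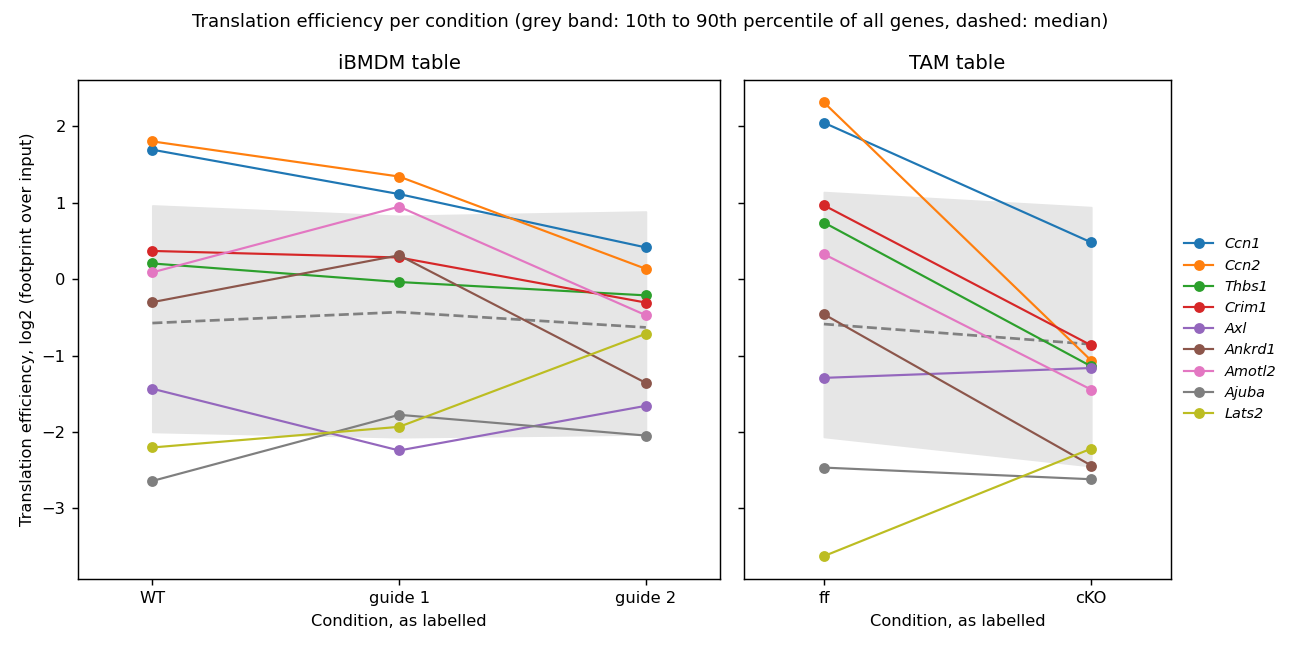
Translation efficiency (log2 footprint over input) of the 9 genes in each condition, with lines joining the values of 1 gene within a table and no order implied. The grey band spans the 10th to 90th percentile of all genes and the dashed line their median. Ccn1 and Ccn2 lie above the band in WT, guide 1 and ff and inside it in guide 2 and cKO.

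Counted over the 9 genes, input RNA in cKO was at least 2-fold higher for Ccn2 and Thbs1 (1.42% of all genes were) and lower for none (0.169%). Under guide 1 input was at least 2-fold higher for 0 of the 9 genes (0.318% of all) and lower for 0 (0.0796%), and under guide 2 likewise for 0 (0.0265%) and 0 (0.0398%). The median input change of the 9 genes was 0.29 under guide 1, 0.01 under guide 2 and 0.59 in cKO, against 0.08, 0.01 and 0.06 for all genes. The summed input of the 14 fibroblast and stellate markers was 4788 TPM in WT, 5814 TPM with guide 1, 4829 TPM with guide 2, 4774 TPM in ff and 7049 TPM in cKO, so the sum moved with Ccn2 and Thbs1 input. Most of the rise from ff to cKO lay in Acta2 (2483 and 3785 TPM) and Fn1 (1182 and 1802 TPM), while Pdgfrb was at 20.7 and 20.6 TPM and lower under guide 1 (-0.48). Of those 14 markers 7 stayed below 1 TPM in all 5 inputs, and the part of cell composition in these values was not tested. In such bulk samples fewer cells of a type and less RNA per cell cannot be told apart.

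Footprints in cKO were at least 2-fold lower for Ccn2, Ankrd1, Amotl2 and Crim1 (8.15% of all genes) and higher for Lats2 (2.73%). Under guide 2 they were lower for Ccn1, Ccn2 and Ankrd1 (4.63% of all) and higher for Lats2 (3.03%). Under guide 1 they were higher for Amotl2 (16.1% of all) and lower for 0 of 9 (10.3%). Translation efficiency in cKO was at least 2-fold lower for 6 of 9 genes, Ccn1, Ccn2, Ankrd1, Amotl2, Crim1 and Thbs1 (16.0% of all), and higher for Lats2 (4.03%). Under guide 2 it was lower for Ccn1, Ccn2 and Ankrd1 (4.87%) and higher for Lats2 (3.53%). Under guide 1 it was higher for 0 of 9 (14.8%) and lower for 0 (13.7%). The rule used these contrasts, so the shares are printed for scale only. Lats2 is counted in cKO although it passed the minimum there only through its cKO footprints.

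Under both guides 0 of the 9 genes passed the size rule in 1 direction. The shares of all genes that did were 0.0133% higher and 0.0265% lower in input, 0.743% and 1.43% in footprints, and 0.902% and 2.04% in translation efficiency. Under guide 2 alone the counts were 1 higher and 3 lower in footprints and in translation efficiency. The footprint changes of Ccn2, Ankrd1, Amotl2, Crim1 and Thbs1 were above 0 under guide 1 and below 0 under guide 2. Both guides are set against the same WT libraries. In cKO, 6 of 9 genes had higher input and lower footprints, as did 41.6% of all genes, against 5 of 9 (27.7% of all) under guide 2 and 2 of 9 (30.1%) under guide 1. The 5 input changes under guide 2 were only 0.005 (Axl) to 0.032 (Ccn2). With libraries shifted to the same median Ccn1 (-0.013), Ankrd1 (-0.011), Thbs1 (-0.011) and Axl (-0.019) fell below 0, so input there was flat.

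**Figure D4:**
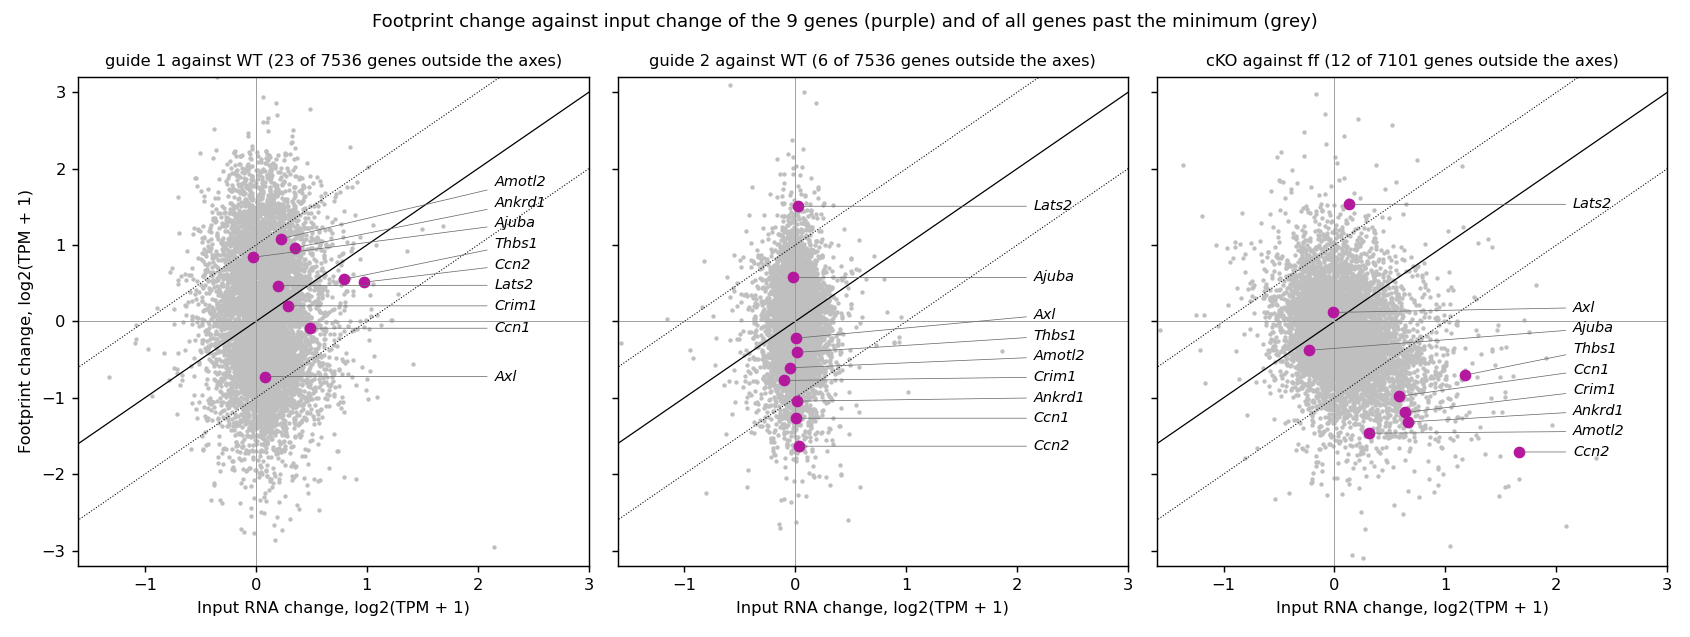
Footprint change (y) against input change (x) on the log2(TPM + 1) scale for the 9 genes (purple) and all genes past the minimum (grey), with the line of equal change and dotted lines 1 unit from it. Under guide 2 the 9 genes lie within 0.10 of no input change and spread from -1.63 to 1.51 in footprints, and in cKO Ccn2 sits at 1.67 and -1.71.

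The 2 controls come from tables that were normalised separately, and their values are set side by side only. Ccn2 input was 977 TPM in WT and 1010 TPM in ff, and its footprints were 3402 and 5007 TPM. Lats2 footprints were 9.82 TPM in WT and 3.36 TPM in ff.

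Of the pathway's own effectors, Yap1 had smaller translation efficiency changes than Ccn2 in all 3 comparisons, and Wwtr1 and Tead1 had larger ones under guide 1 and smaller ones under guide 2 and in cKO. Yap1 input lay between 89.7 and 99.0 TPM and its footprints between 31.5 and 45.5 TPM in all 5 conditions, and its translation efficiency changes were 0.02 under guide 1, 0.27 under guide 2 and -0.16 in cKO. Wwtr1, which encodes TAZ, had translation efficiency changes of -0.84, -0.20 and -0.80 in the same order. Of the 10 YAP, TAZ, TEAD and VGLL genes 7 passed the minimum. In cKO 2 of them were at least 2-fold lower in translation efficiency, the DNA-binding partners Tead1 (-1.27) and Tead4 (-1.53), where 16.0% of all genes were, with a list median of -0.36 against -0.25 for all genes. With the ff and cKO footprint libraries exchanged these values would be 0.15 and 1.15. Tead1 was also lower under guide 1 (-2.20; footprints 57.8 TPM in WT and 13.5 TPM with guide 1) but at -0.11 under guide 2, where Tead2 was higher (1.13). Tead4 footprints were 15.1 TPM in ff and 5.34 TPM in cKO. Tead2 footprints were 9.56 TPM in WT and 22.2 TPM with guide 2. Like those of Lats2, these are low values of unknown depth. Tead3 had input between 6.09 and 8.52 TPM and did not pass the minimum.

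Other targets of the pathway were taken from a list of 15 further genes of the published YAP/TAZ signature. Of these, 6 passed the minimum in each table, though not the same 6: Tgfb2 passed in the TAM table alone and Rbms3 in the iBMDM table alone. The ff level of Tgfb2 RNA, 3.90 TPM, lay below 5 TPM, so the gene passed only through its cKO input (12.2 TPM). That higher cKO input also lowers its translation efficiency change. The cKO call of Tgfb2 therefore carries no weight beyond its levels, and the count and median below include it. In cKO 3 of 6 were at least 2-fold lower in translation efficiency (16.0% of all genes) and 0 higher (4.03%), with a median of -1.69 against -0.25 for all genes. The 3 lower genes were F3, tissue factor (-3.76), the growth factor Tgfb2 (-2.62) and the stress-induced Gadd45a (-2.42). Like Ccn2 they had higher input in cKO, by 1.48, 1.43 and 1.41, and their footprint changes were -2.28 for F3 and -1.19 for Tgfb2, while Gadd45a footprints were 58.9 TPM in ff and 28.9 TPM in cKO. F3 input went from 54.6 TPM in ff to 154 TPM in cKO, and its footprints were 162 and 32.4 TPM. With the ff and cKO footprint libraries exchanged the translation efficiency change would be 0.80 for F3, -0.23 for Tgfb2 and -0.41 for Gadd45a, and the list's median 0.04 against 0.11 for all genes. Under guide 2 the change of F3 was -1.88, the 1 of the 6 iBMDM genes past the size rule (4.87% of all genes were lower), and Tgfb2, below the minimum there, was at -1.72. Myof, Asap1 and Ccdc80 lay between -0.96 and -0.56 in cKO.

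A second list held 10 other reported targets, of which 9 passed the minimum. In cKO 3 of the 9 were at least 2-fold lower in translation efficiency (16.0% of all genes) and 0 higher (4.03%), with a median of -0.51 against -0.25 for all genes. Among them were Edn1, endothelin-1 (-2.35), and Inhba, an activin subunit (-1.56). Edn1 input went from 41.4 TPM in ff to 90.1 TPM in cKO, against footprints of 184 and 77.0 TPM, the same crossing as Ccn2. With the ff and cKO footprint libraries exchanged the list's median would be 0.14 against 0.11, and Edn1 would be at 0.14. Under guide 2 Edn1 (-1.11) was lower too. Dlc1, a GTPase-activating protein, was lower under both guides (-1.71 and -1.06) and at 0.02 in cKO. With the same exchange Dlc1 would be at -1.43 in cKO. Growth-related targets of the same list, Birc5 (0.29) and Myc (0.05), did not differ much in cKO.

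The listed Hippo kinases and regulators outside the 9 genes were flatter than the 9 genes under guide 2 and in cKO, but not under guide 1. The 9 genes, which include the regulators Amotl2, Ajuba and Lats2, were chosen by these changes, so the contrast is a description. Of 19 Hippo kinases and regulators 13 passed the minimum in the TAM table and 15 in the iBMDM table. Of those below it in the TAM table, Amotl1 (-1.29), Amot (-1.26) and Taok2 (-1.11) were lower in cKO translation efficiency. There Nf2 (1.03) was higher, and Wwc1 (0.42) and Wtip (-0.03) were under the size rule. In cKO 0 of 13 passed the size rule in translation efficiency in either direction, with a median of -0.26 against -0.25 for all genes, and under guide 2 0 of 15 did, with a median of -0.12 against -0.05. Under guide 1, 1 of 15 was higher (14.8% of all genes) and 4 were lower (13.7%), with a median of -0.59 against 0.01 for all genes, where the 9 genes had a median of -0.09 and 0 past the size rule. The Lats2 paralogue Lats1 had translation efficiency changes of -0.74, -0.01 and -0.29 under guide 1, guide 2 and in cKO, where Lats2 had 0.27, 1.49 and 1.40.

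**Figure D5:**
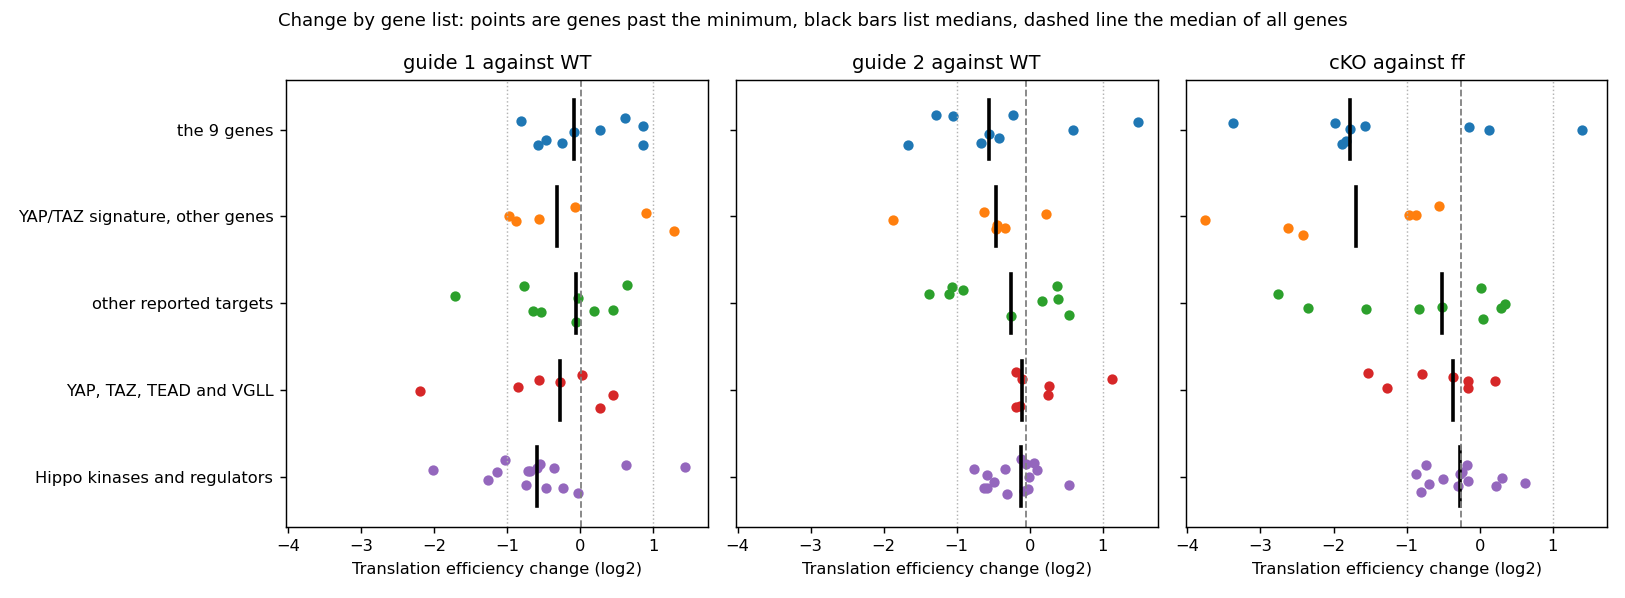
Translation efficiency change (x axis, log2) of each gene past the minimum in 5 lists, for guide 1, guide 2 and cKO. Black bars are list medians, the dashed line is the median of all genes and dotted lines mark the 2-fold rule. In cKO the medians of the 9 genes (-1.77) and of the other signature genes (-1.69) lie left of that of the Hippo kinases and regulators (-0.26). Of the 9 genes, Lats2 (1.40), Axl (0.13) and Ajuba (-0.15) lie right of that Hippo median.

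Family relatives of the 9 genes were mostly low. Of 17 relatives 4 passed the minimum in the TAM table and 0 of those were past the size rule in cKO. Among CCN genes, Ccn4 had input between 62.0 and 82.2 TPM and a cKO translation efficiency change of -0.76, and Ccn3 input between 5.14 and 9.36 TPM and a change of -0.50, against -3.38 for Ccn2. Ccn5 and Ccn6 stayed below 1 TPM in all 5 inputs, and so did Thbs2 and Mertk, a receptor of the Axl family.

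Among the genes whose 6 input and footprint changes lay nearest to those of Ccn2, by Euclidean distance over 5152 genes whose mean TPM reached 10, were Hmox1 (0.59), Has2 (0.67), Ptgs2 (0.70) and Atf3 (0.84), where the median gene was at 3.10. They encode heme oxygenase, a hyaluronan synthase, a prostaglandin synthase and a stress-induced transcription factor. Each had higher input and lower footprints in cKO, such as Hmox1 with 1.53 and -2.16, as did 41.6% of all genes. These cKO changes are part of the distance, so the shared direction follows from how the genes were chosen. Among the 9 genes themselves Ankrd1 was nearest to Ccn2, at 1.45 in place 31, and Ccn1 was at 1.56 in place 45. Among the nearest to Ccn1 were Casp8 (0.36), Yif1b (0.36), Slc3a2 (0.37) and Rab13 (0.46), where the median gene was at 1.95. The guide 1 and guide 2 changes share the WT libraries, so the 6 changes are not independent.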

How the data were processed

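Input RNA was polyadenylated and footprints came from RNase I digestion, per the labels' protocols. The authors deposited TPM in 2 tables, one per experiment. The submitters' processing notes name fastp 0.18.0 and Bowtie2. Build, annotation, quantifier and read depth are not stated there, and TPM keeps no depth, so no counting error can be given. For 20 symbols with 42 rows the row with the highest mean was kept.

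Changes were computed with pandas 2.3.3 and numpy 2.4.6 in Python 3.11.15 on log2(TPM + 1), which understates changes of low genes, within 1 table, and the calculation was tested on simulated data. No test was made: each condition has 1 library per kind. The members and the gene lists were chosen with earlier results of these data known. Named were all members, Wdr4, the YAP and TEAD genes, up to 4 genes per list and direction past 2-fold, the 5 genes nearest Ccn2 and Ccn1, and markers and relatives by level. Some genes that this rule names are not reported here. Genes given for contrast (Tead2, Birc5, Myc, Lats1, Myof, Asap1, Ccdc80) were chosen after their values were seen. Alternatives were other pseudocounts, minimums and scalings, guide 2 alone and exchanged TAM footprints.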

Additional observations from a re-analysis of the deposited data

Results flagged for a closer look

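For Ajuba and Axl the 2 guides moved one way and cKO the other in the TPM as deposited. The difference between the mean guide change and the cKO change was not tested, and the tables were normalised separately. For Ajuba footprints the changes were 0.84 under guide 1, 0.58 under guide 2 and -0.38 in cKO (difference 1.09), and for its translation efficiency 0.86, 0.59 and -0.15 (difference 0.88). For Axl footprints they were -0.72, -0.22 and 0.12 (difference -0.59), and for its translation efficiency -0.81, -0.22 and 0.13 (difference -0.64). Axl input differed by 0.056, from 0.086 and 0.0046 to -0.011, which is a small value in each library. With libraries shifted to the same median, Ajuba translation efficiency in cKO was 0.14, the same direction as under the guides (0.84 and 0.69). Axl input was then at -0.021, -0.019 and -0.096, all below 0.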

How the results depend on the processing

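The translation efficiency change of Ccn2 kept its direction and its side of 2-fold under both other pseudocounts (0.1 and 5 TPM) and both rescalings. A pseudocount of 5 TPM left 0 genes higher in cKO in footprints and in translation efficiency, Lats2 being at 0.99 and 0.87. Libraries shifted to the same median, or TPM rescaled after dropping histone, ribosomal protein and mitochondrially encoded genes, left 0 genes higher in guide 1 footprints (Amotl2 at 0.95 and 0.91). The same-median shift also took the genes at least 2-fold lower from 3 to 2 in guide 2 footprints (Ankrd1 at -0.97) and translation efficiency (Ankrd1 at -0.96), and from 4 to 3 in cKO footprints (Crim1 at -0.98), and it moved the median of all genes in cKO translation efficiency from -0.25 to 0.04. A minimum of 20 TPM left 0 genes higher in footprints and in translation efficiency under guide 2 and in cKO, since it leaves out Lats2. Without guide 1, the counts under both guides go from 0 to 1 higher and 3 lower in footprints and in translation efficiency. With no minimum the counts were the same. Beyond these constructions the cause was not tested. Of the values of single genes, 78 of 78 kept direction and side with a pseudocount of 0.1 TPM, 76 of 78 with 5 TPM, 67 of 78 with the same median and 76 of 78 with the rescaled TPM.

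Exchanging the ff and cKO footprint libraries, an alternative added after seeing the data, reverses each cKO footprint change by construction: 1.71 for Ccn2, 1.32 for Ankrd1, 1.46 for Amotl2, 1.19 for Crim1 and -1.53 for Lats2, with 4 genes higher and 1 lower. Translation efficiency changes would be 0.043 for Ccn2, 0.40 for Ccn1, 0.65 for Ankrd1, 1.16 for Amotl2 and 0.55 for Crim1. Thbs1 would still be lower (-0.47), with Ajuba at 0.60, Axl at -0.11 and Lats2 at -1.66. Of the 9 genes 1 would be at least 2-fold higher and 1 lower. No paired analysis was possible because each condition has 1 library per kind.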

Other observations

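Binding partners of the 9 gene products were lower in translation efficiency in places. Of 15 listed partners 10 passed the minimum, with a median change of -0.87 under guide 1, -0.15 under guide 2 and -0.65 in cKO, against 0.01, -0.05 and -0.25 for all genes. Lrp1, an endocytic receptor that binds Ccn2 and Thbs1, was lower in all 3 comparisons (-1.33, -1.14 and -1.05), and its footprints were 215 TPM in WT, 92.5 TPM with guide 1 and 97.2 TPM with guide 2. Itgav, an integrin subunit that binds Ccn1 and Thbs1, was at -1.43, -0.92 and -1.21. Of the 10 partners, 4 were at least 2-fold lower under guide 1 (13.7% of all genes), 1 under guide 2 (4.87%) and 2 in cKO (16.0%). With the ff and cKO footprint libraries exchanged, the cKO change would be 0.11 for Lrp1 and 0.12 for Itgav. The list's median would then be -0.03 against 0.11 for all genes. Gas6, the ligand of Axl, had input between 3.67 and 7.72 TPM and did not pass the minimum.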
